A study of Mus musculus with 3 samples.

Results

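Prostanoids are short-lived lipid signals made from arachidonic acid. The group described here holds the genes of the cyclooxygenases, of enzymes that finish prostaglandin E2, prostacyclin and thromboxane, and of the receptors for prostaglandin E2 and thromboxane. Members were the probe sets of the deposited expression table whose only gene symbol in the platform annotation was Ptgs1, Ptgs2, Ptges, Ptgis, Tbxas1, Tbxa2r, Ptger1, Ptger2, Ptger3 or Ptger4. This rule found 15 probe sets of 45101, which read 9 of the 10 genes, among 18194 genes with a probe set of a single symbol. The platform annotation used here names no probe set for Ptgs1, so this gene was not analysed here.

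Glomeruli, the filtering tufts of the kidney, were isolated from 3 nondiabetic male FVB/NJ mice aged 8 weeks. FVB/NJ is an inbred wild-type strain, and the animals ate a standard rodent diet and carried no transgene named in the labels. Each mouse gave RNA from its own pool of isolated glomeruli for 1 Affymetrix Mouse 430.2 array. The series was set up around diabetic OVE26 mice and these controls, and OVE26 arrays were not analysed here, so the data describe levels in control glomeruli and the spread between mice 1, 2 and 3.

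In this pathway phospholipase A2 frees arachidonic acid, and the cyclooxygenases COX-1 (Ptgs1) and COX-2 (Ptgs2) turn it into an unstable intermediate. Terminal synthases then make prostaglandin E2, prostacyclin or thromboxane A2, which act on G protein-coupled receptors of nearby cells. In the glomerulus and its arterioles, prostaglandin E2 and prostacyclin relax vessels and support filtration, and thromboxane constricts. COX-2 in the kidney cortex is best known from the macula densa and the adjoining thick ascending limb, and it is also made by podocytes.

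The isolates carried the markers of glomeruli. All measured markers of podocytes (7 genes), endothelium (10) and mesangium (5) exceeded background on every array. The arrays had medians of 2.82 to 2.85 on the log2 scale and 22095 to 24578 probe sets above background. Markers of other cells differed between the isolates. Proximal tubule markers were highest in mouse 3 for 8 of 9 genes above background, and thick ascending limb markers were highest in mouse 2 for 6 of 6. Macrophage markers were highest in mouse 1 for 4 of 5, and interferon-responsive genes were highest in mouse 3 for 6 of 6.

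Of the 9 prostanoid genes measured, 8 exceeded background in every mouse, and Ptges did so in none. Over all genes with a probe set of a single symbol, 58.3% were above background on every array. Background was the 95th percentile, on each array, of the signals from 80 probe sets that read odorant or vomeronasal receptor genes, which are hardly expressed in kidney. This gave thresholds of 2.58, 2.91 and 2.86 in mice 1, 2 and 3. Values are log2 GCRMA expression values, so a difference of 1 is a 2-fold difference, and errors are SD over the mice (n = 3). Levels of different probe sets are not compared with each other, since each set binds its target with its own efficiency. The RNA comes from whole glomeruli, so fewer cells of a type and less RNA per cell cannot be told apart.

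**Figure D1:**
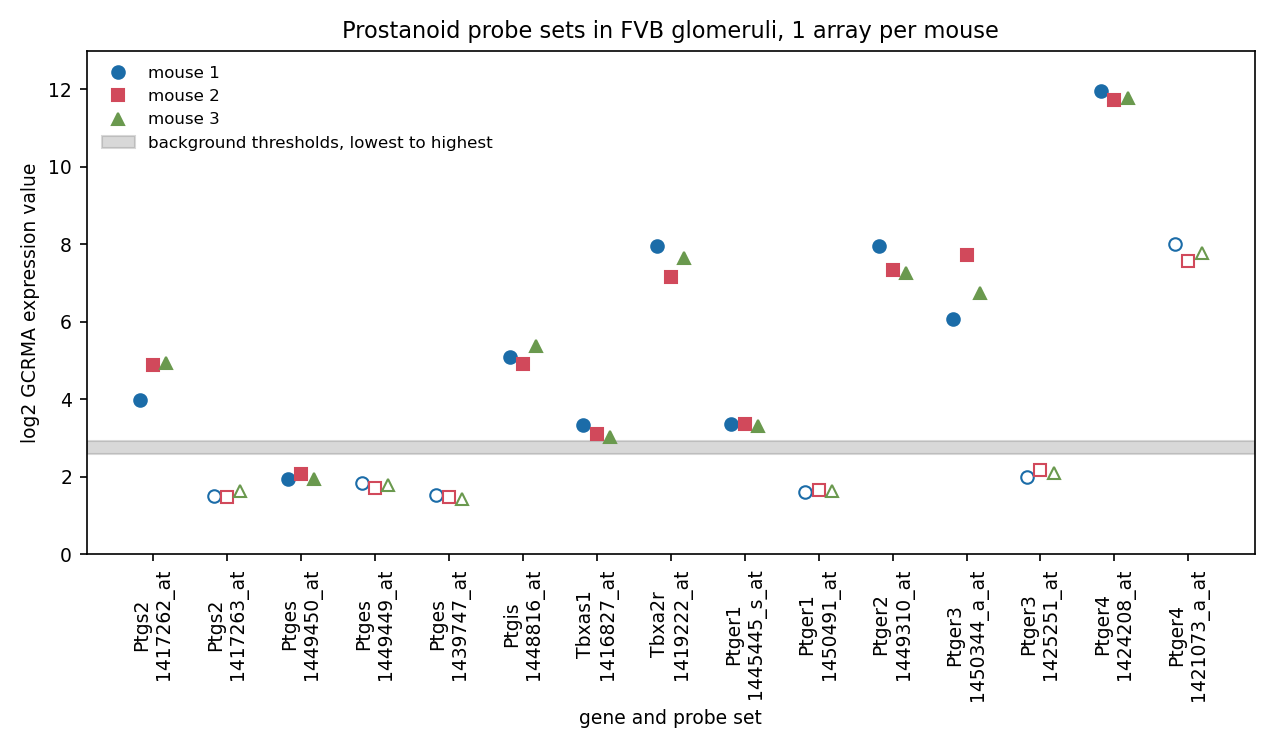
Log2 GCRMA expression value (y axis) of the 15 prostanoid probe sets (x axis), with 1 point per mouse; filled points mark the probe set that stands for its gene, and the grey band spans the background thresholds of the 3 arrays (2.58 to 2.91). All 3 Ptges probe sets lie under the band, and the points of Ptger3 (probe set 1450344_a_at) lie farthest apart, from 6.06 to 7.72.

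The stretches upstream of 4 of these genes are shown because Ptger3 and Ptgs2 gave the widest ranges between mice, and because the related receptor genes Ptger2 and Ptger4 were both highest in mouse 1. Each is the 250 bases before a RefSeq start of the gene, on the strand of the gene, from build GRCm38.p6. Capitals mark matches on either strand to 4 short motifs, namely the GC box GGGCGG, the CCAAT box CCAAT, the TATA box TATAAA and the core TGACG of the cyclic AMP response element.
Ptgs2: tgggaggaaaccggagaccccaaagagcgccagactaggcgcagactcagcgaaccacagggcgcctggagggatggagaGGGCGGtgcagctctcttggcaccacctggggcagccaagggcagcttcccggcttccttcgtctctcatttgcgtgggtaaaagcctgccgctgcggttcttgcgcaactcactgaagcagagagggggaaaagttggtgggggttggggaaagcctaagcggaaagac
Ptger2: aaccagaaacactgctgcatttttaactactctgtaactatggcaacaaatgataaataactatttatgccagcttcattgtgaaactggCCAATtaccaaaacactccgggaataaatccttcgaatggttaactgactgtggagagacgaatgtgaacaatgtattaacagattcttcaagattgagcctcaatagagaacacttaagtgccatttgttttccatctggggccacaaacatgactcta
Ptger3: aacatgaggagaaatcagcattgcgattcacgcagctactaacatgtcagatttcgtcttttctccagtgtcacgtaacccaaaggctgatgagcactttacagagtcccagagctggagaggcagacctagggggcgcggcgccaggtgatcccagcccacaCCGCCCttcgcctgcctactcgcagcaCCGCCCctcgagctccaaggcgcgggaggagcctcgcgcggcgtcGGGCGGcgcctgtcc
Ptger4: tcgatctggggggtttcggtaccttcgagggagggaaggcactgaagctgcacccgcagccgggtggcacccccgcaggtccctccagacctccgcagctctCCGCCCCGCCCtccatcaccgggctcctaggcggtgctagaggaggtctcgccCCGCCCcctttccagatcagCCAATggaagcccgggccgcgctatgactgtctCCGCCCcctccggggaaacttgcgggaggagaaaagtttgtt

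The Ptgs2 window is chr1:150099781-150100030 on the plus strand and that of Ptger2 is chr14:44987861-44988110 on the plus strand. The Ptger3 window is chr3:157566626-157566875 on the plus strand, and that of Ptger4 is chr15:5244188-5244437 on the minus strand. The windows differ in base composition. The Ptger2 window is 38.0% G and C with 3 CpG pairs, against 62.0% with 21 pairs for Ptger3, 66.8% with 19 for Ptger4 and 61.6% with 13 for Ptgs2. The median over all 32851 windows of this kind was 52.4% with 6 pairs. The GC box matched 3 times for Ptger3, 4 times for Ptger4, where a pair of matches overlaps by 1 base, once for Ptgs2 and not at all for Ptger2. CCAAT matched once each for Ptger2 and Ptger4, and neither TATAAA nor TGACG matched in these 4 windows. Of all windows, 32.7% held the GC box, 33.8% CCAAT, 12.4% TATAAA and 17.8% TGACG. RefSeq gave windows for 7 of the 9 measured genes, and the matches describe letters only.

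COX-2 (Ptgs2), the inducible cyclooxygenase, was read by probe set 1417262_at at 3.97 in mouse 1, 4.88 in mouse 2 and 4.94 in mouse 3 (4.60 ± 0.54). Mouse 1 lay 0.91 under the next mouse, while the other mice lay 0.06 apart. The range was 1.96-fold, just under the 2-fold size rule. The other Ptgs2 probe set, 1417263_at, was below background in all mice, between 1.47 and 1.62, so the pattern of Ptgs2 rests on probe set 1417262_at alone. Without mouse 1 the range was 0.06 on the log2 scale.

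Members of 4 other lists were also mostly lowest in mouse 1. Ptgs2 belongs to the immediate early genes, which cells switch on within minutes of a stimulus. Of 17 other such genes 14 were above background, and 10 of these 14 had their lowest value in mouse 1, against 33.3% of all genes above background. Fos was at 8.75, 10.10 and 10.09 in mice 1, 2 and 3, and Egr1 was at 8.43, 9.54 and 9.21. Others went another way. Nr4a1, with the widest range of the list, was at 8.04, 10.36 and 7.79, lowest in mouse 3. Dusp1 was at 11.78, 11.68 and 11.59, highest in mouse 1. The summed level of a list is log2 of the sum of linear values over its measured genes, including those below background. For the immediate early genes it was 13.74, 14.00 and 14.05, with Fosb below background in all mice. Thick ascending limb and macula densa markers were lowest in mouse 1 for 6 of 6 genes. The macula densa gene Nos1 was at 2.90, 3.42 and 3.03 by the highest of its 4 probe sets. It lay above the thresholds by only 0.32, 0.51 and 0.17, so its order over the mice is uncertain. Heat shock genes were lowest in mouse 1 for 5 of 6, and Hspa1a, an inducible chaperone gene, was at 5.21, 10.51 and 11.13. The exception, Hspb1, was highest in mouse 1, at 12.22, 11.70 and 12.09. Proximal tubule markers were lowest in mouse 1 for 8 of 9. The part of these cells or responses in the Ptgs2 values was not tested.

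Of the terminal synthases Ptgis and Tbxas1 were above background and Ptges was not. Ptges encodes the inducible microsomal prostaglandin E synthase that works with COX-2. Its 3 probe sets were at 1.93, 2.07 and 1.93 (1449450_at), at 1.83, 1.69 and 1.79 (1449449_at) and at 1.53, 1.47 and 1.43 (1439747_at) in mice 1, 2 and 3. None was above background, which does not show that the RNA was absent. The values of 1449450_at in mice 1 and 3 were identical.

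Ptgis, which encodes prostacyclin synthase, was at 5.09, 4.91 and 5.38 in mice 1, 2 and 3 (5.13 ± 0.23, probe set 1448816_at). Its range was 1.38-fold, with mouse 3 highest. Tbxas1 encodes thromboxane A synthase, an enzyme of platelets and macrophages. It was at 3.33, 3.09 and 3.03 (3.15 ± 0.16, probe set 1416827_at), above the thresholds by 0.75, 0.18 and 0.17. Tbxas1 therefore lay close to background in mice 2 and 3, and it was lost with a threshold at the 99th percentile.

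Tbxas1 was highest in mouse 1, as were 4 of 5 macrophage markers above background. Of 11 macrophage markers 5 were above background in all mice, and Tyrobp, an adaptor of myeloid receptors, was at 6.78, 4.79 and 3.36. The log2 summed level of the list was 10.27, 9.45 and 8.76 in mice 1, 2 and 3, and Cd68, Fcgr1, Itgam and C1qa were below background in all. Of 7 platelet markers only Gp1bb was above background in all mice (6.20, 5.83 and 6.19), and Itga2b and Gp5 were below it in all. The chemokine genes Pf4 (3.35, 2.22 and 2.16) and Ppbp (4.07, 2.36 and 2.74) of platelets were above background in mouse 1 only. The log2 summed level of the platelet list was 6.93, 6.40 and 6.71. Their part in the Tbxas1 values was not tested.

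The receptors include the constrictor receptor for thromboxane and the 4 prostaglandin E2 receptors EP1 to EP4. Tbxa2r, the thromboxane receptor gene, was at 7.96, 7.16 and 7.63 in mice 1, 2 and 3 (7.59 ± 0.40, probe set 1419222_at). Mouse 1 was highest and mouse 2 lowest, with a 1.73-fold range. Arteriolar smooth muscle, mesangial cells and platelets are known to bear this receptor. Smooth muscle markers were highest in mouse 2 for 4 of 5 genes above background and lowest in mouse 3 for 4 of 5. Mesangial markers were highest in mouse 1 for 2 of 5 and lowest in mouse 2 for 3 of 5, with a log2 summed level of 14.71, 14.64 and 14.66. That of the platelet markers was 6.93, 6.40 and 6.71, highest in mouse 1 and lowest in mouse 2. It includes genes below background, and Gp1bb, the only platelet marker above background in all mice, was at 6.20, 5.83 and 6.19. The part of these cells in the Tbxa2r values was not tested.

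Ptger2 and Ptger4 encode EP2 and EP4, which raise cyclic AMP. Ptger2 was at 7.96, 7.34 and 7.26 (7.52 ± 0.38, probe set 1449310_at), a 1.62-fold range. Mouse 1 lay 0.62 above the next mouse, and the other mice lay 0.08 apart. Ptger4 was at 11.95, 11.72 and 11.77 (11.81 ± 0.12, probe set 1424208_at), a 1.17-fold range. Its other probe set, 1421073_a_at, was at 8.01, 7.58 and 7.79, also with mouse 1 highest and mouse 2 lowest. The Ptger4 values of the mice thus lay in the same order by both probe sets, with 0.23 and 0.43 between the highest and the lowest on the log2 scale.

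Ptger1 encodes EP1, which signals through calcium. Its probe set 1445445_s_at was at 3.36, 3.37 and 3.30 (3.34 ± 0.04), above the thresholds by 0.78, 0.45 and 0.44. The mice did not separate, as the range was 1.05-fold. The second set, 1450491_at, was below background in all mice (1.59, 1.65 and 1.62). A probe set with the suffix _s_at can bind several transcripts. The low signal can thus not be assigned to Ptger1 with certainty, and it was also lost with a threshold at the 99th percentile.

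Ptger3 encodes EP3, the receptor that lowers cyclic AMP and that is known in the kidney from the thick ascending limb and collecting duct. It was at 6.06 in mouse 1, 7.72 in mouse 2 and 6.73 in mouse 3 (6.84 ± 0.84, probe set 1450344_a_at). No pair of mice lay close, as mouse 2 was 0.99 above mouse 3 and mouse 3 was 0.67 above mouse 1. The range was 3.16-fold, and Ptger3 was the only prostanoid gene of the 8 above background with a range of at least 2-fold, against 5.94% of 10610 genes above background. Its other probe set, 1425251_at, was below background (1.99, 2.17 and 2.09), with mouse 2 highest and mouse 1 lowest there too. With the mean over both probe sets, or without mouse 1 or mouse 2, no prostanoid gene had a 2-fold range. The range of Ptger3 was then 0.92 with the mean over both probe sets and 0.99 without mouse 1, both just under 1 on the log2 scale. Without mouse 2 it was 0.67.

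Genes with a like pattern were sought by the distance between values centred on each gene's mean, over the 3 arrays and all genes above background. The nearest were Irx2 (distance 0.05), Mymx (0.07) and Sorl1 (0.09), in log2 units. Irx2, a homeobox transcription factor gene, was at 2.95, 4.69 and 3.65 in mice 1, 2 and 3. Mymx, the gene of a micropeptide of muscle cell fusion, was at 3.57, 5.33 and 4.29, and Sorl1, which encodes a sorting receptor, was at 6.17, 7.95 and 6.87. Of all genes above background, 14.9% were highest in mouse 2 and lowest in mouse 1.

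Thick ascending limb markers lay in the same order as Ptger3. Slc12a1, the sodium-potassium-chloride cotransporter gene, ranked 4 by this distance (0.11). The other markers lay farther away, Umod at rank 83, Kcnj1 at 100, Cldn16 at 225, Cldn10 at 334 and Nos1 at 416, with distances of 0.43 to 0.81. Slc12a1 was at 10.09, 11.68 and 10.85 in mice 1, 2 and 3. Kcnj1 (6.36, 8.67 and 7.52), Cldn16 (3.92, 6.32 and 4.47), Cldn10 (4.88, 7.50 and 6.45), Umod (12.47, 13.56 and 13.06) and Nos1 all had mouse 2 highest and mouse 1 lowest, so that 6 of 6 markers did. The log2 summed level of the list was 12.75, 13.97 and 13.38, and none of its markers was below background, though Nos1 lay close to it. The markers of distal tubule and collecting duct, the other known site of EP3, were above background in all mice for 1 of 7 genes, Calb1 (3.80, 3.64 and 5.55). Slc12a3 was above background in mice 2 and 3 only (2.36, 4.32 and 3.67), in the order of Ptger3. Hsd11b2 (3.34, 2.85 and 3.30) and Aqp2 (2.65, 2.60 and 2.87) went another way, lowest and below background in mouse 2. Aqp3 was at 2.73 in all mice, above background in mouse 1 only, and Scnn1b and Fxyd4 were below background in all. The part of tubule RNA in the Ptger3 values was not tested.

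**Figure D2:**
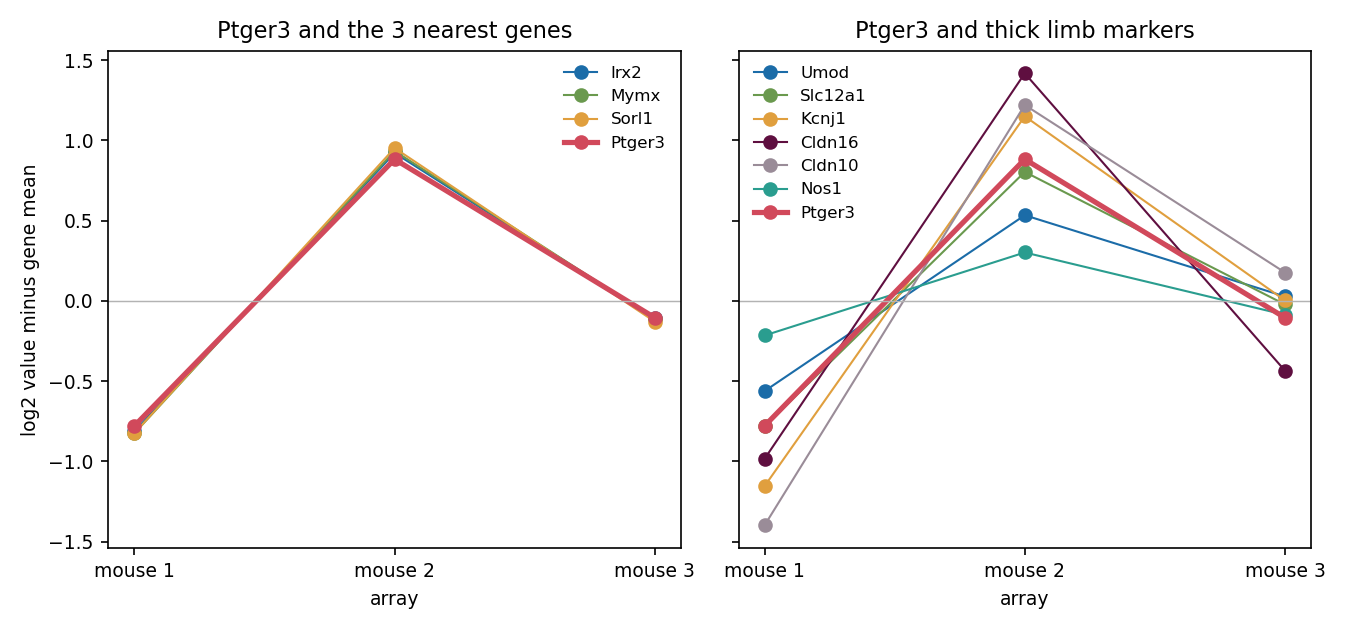
Log2 value minus the gene's mean over 3 mice (y axis) on each array (x axis), for Ptger3 with its 3 nearest genes (left) and with 6 thick ascending limb and macula densa markers (right); lines join the values of a gene and imply no order of the mice. Ptger3, at 6.06, 7.72 and 6.73 before centring, and all 6 markers have their highest value in mouse 2 and their lowest in mouse 1.

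The design allows a test of spread between mice, which also holds any spread from glomerular isolation or array, and no test between groups. In limma, each gene's variance was set against the variances of all 10610 genes above background at like mean level, one-sided for excess. With Benjamini-Hochberg adjustment 0 of the 8 prostanoid genes passed 0.05, where 0% of all genes passed. The comparison variances were fitted to these same genes over few arrays, so hardly any gene could pass. Hspa1a, with a 60.4-fold range, had the smallest unadjusted p from limma, 1.1e-04, and its adjusted p was 0.47. The 0 calls therefore say little about the prostanoid genes. At an unadjusted p under 0.05 there was 1 prostanoid gene, Ptger3, against 4.66% of all genes. The adjusted p of Ptger3 from limma was 0.87. The unadjusted p-values from limma were 0.022 for Ptger3 and from 0.105 for Ptgs2 to 0.97 for Ptger1 in the other genes. The fit without a trend or robust estimation also called 0 genes, with 399 genes and Ptger3 among them at an unadjusted p under 0.05.

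The SDs of the 8 genes ran from 0.04 for Ptger1 to 0.84 for Ptger3, with a median of 0.31. The median over all genes above background was 0.16, with quartiles of 0.09 and 0.26. The SD of Ptger3 lay at percentile 97.8 of all genes above background, that of Ptgs2 at 94.5, of Tbxa2r at 89.2, of Ptger2 at 88.2 and of Ptger4 at 36.7. Of these 8 genes, 4 were highest in mouse 1, against 35.1% of all genes, 2 in mouse 2, against 28.6%, and 2 in mouse 3, against 36.3%. The share in mouse 1 came from Tbxa2r, Ptger2, Ptger4 and Tbxas1. Without mouse 1 the median SD of the 8 genes was 0.0516, over the remaining arrays only. It is not set against the values for all genes, which use every array. Ranges over all genes narrowed too. Genes with a 2-fold range numbered 630 with every mouse and 320, 371 and 319 without mouse 1, 2 and 3.

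**Figure D3:**
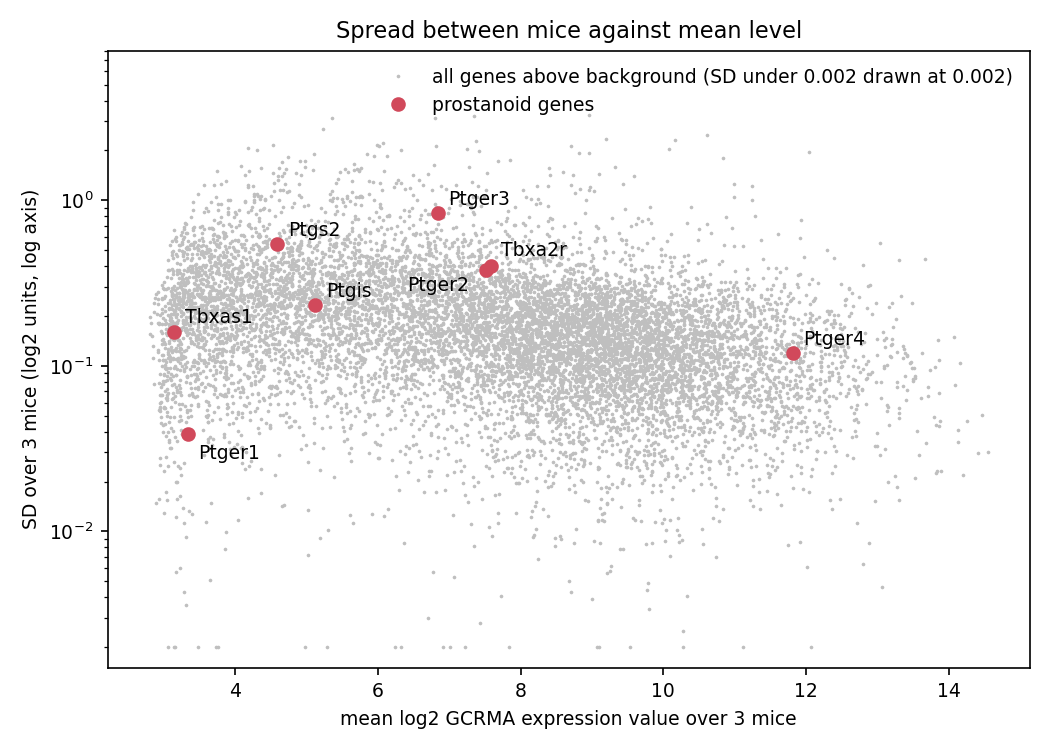
SD over 3 mice in log2 units (y axis, log scale) against mean log2 GCRMA value (x axis) for 10610 genes above background (grey) and the 8 prostanoid genes among them (red, named). Ptger3 (SD 0.84) lies near the top of the cloud and Ptger1 (SD 0.04) near its lower edge.

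The other genes of the pathway were taken as a list of 22 genes, of which 19 were measured and 13 exceeded background in every mouse. With limma 0 of these 13 passed an adjusted p of 0.05, 1 had an unadjusted p under 0.05, against 4.66% of all genes, and 3 had a range of at least 2-fold, against 5.94%. Their median SD was 0.21. For the release of arachidonic acid, Pla2g4a, the cytosolic phospholipase A2 gene, was at 10.10, 9.87 and 9.98 in mice 1, 2 and 3 (9.98 ± 0.12). Of 6 phospholipase genes 3 were above background and none had a 2-fold range.

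Of 7 other synthase genes 4 were above background, and none of these had a 2-fold range. Ptges2, a second prostaglandin E synthase gene, was at 5.45, 5.28 and 5.46 (5.39 ± 0.10), above background where Ptges was not. Hpgds, the hematopoietic prostaglandin D synthase gene, was below background in all mice.

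Both other prostanoid receptors that were above background had a 2-fold range. Ptgir, the prostacyclin receptor gene, was at 5.52, 4.33 and 4.45 (4.77 ± 0.66), a 2.29-fold range. Mouse 1 lay 1.07 above the next mouse. Ptgfr, the prostaglandin F receptor gene, was at 5.93, 4.76 and 5.56 (5.42 ± 0.60, probe set 1446331_at), a 2.25-fold range with mouse 2 lowest. A second Ptgfr probe set above background, 1420349_at, was close to it at 3.27, 3.27 and 3.29, so the difference rests on the first. The other Ptgfr probe sets were below background in all mice. Among them 1453924_a_at (2.52, 2.21 and 2.32) and 1449828_at (2.20, 1.69 and 1.98) had mouse 1 highest and mouse 2 lowest. By contrast, 1440777_x_at (2.27, 2.45 and 2.17) had mouse 2 highest. The prostaglandin D receptor genes Ptgdr and Ptgdr2 were below background in all mice.

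Genes that move and break down prostanoids were above background for 4 of 5 members. Slco2a1, the prostaglandin uptake transporter gene, was at 10.89, 10.87 and 10.64 (10.80 ± 0.14). Ptgr1 encodes a reductase that inactivates prostaglandin metabolites and leukotriene B4. It was at 6.20, 4.55 and 5.03 (5.26 ± 0.85), a 3.14-fold range, with an adjusted p of 0.97 from limma. Hpgd, the gene of the main prostaglandin-degrading dehydrogenase, was below background in all mice. Of the 13 genes, 6 were highest in mouse 1, against 35.1% of all genes, and 9 were lowest in mouse 2, against 35.0%. Macrophage markers were highest in mouse 1 for 4 of 5 genes and lowest in mouse 3 for 4 of 5. Endothelial markers were highest in mouse 1 for 7 of 10, and lowest in mouse 3 for 5 and in mouse 2 for 4. Their part in the values of the pathway genes was not tested.

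**Figure D4:**
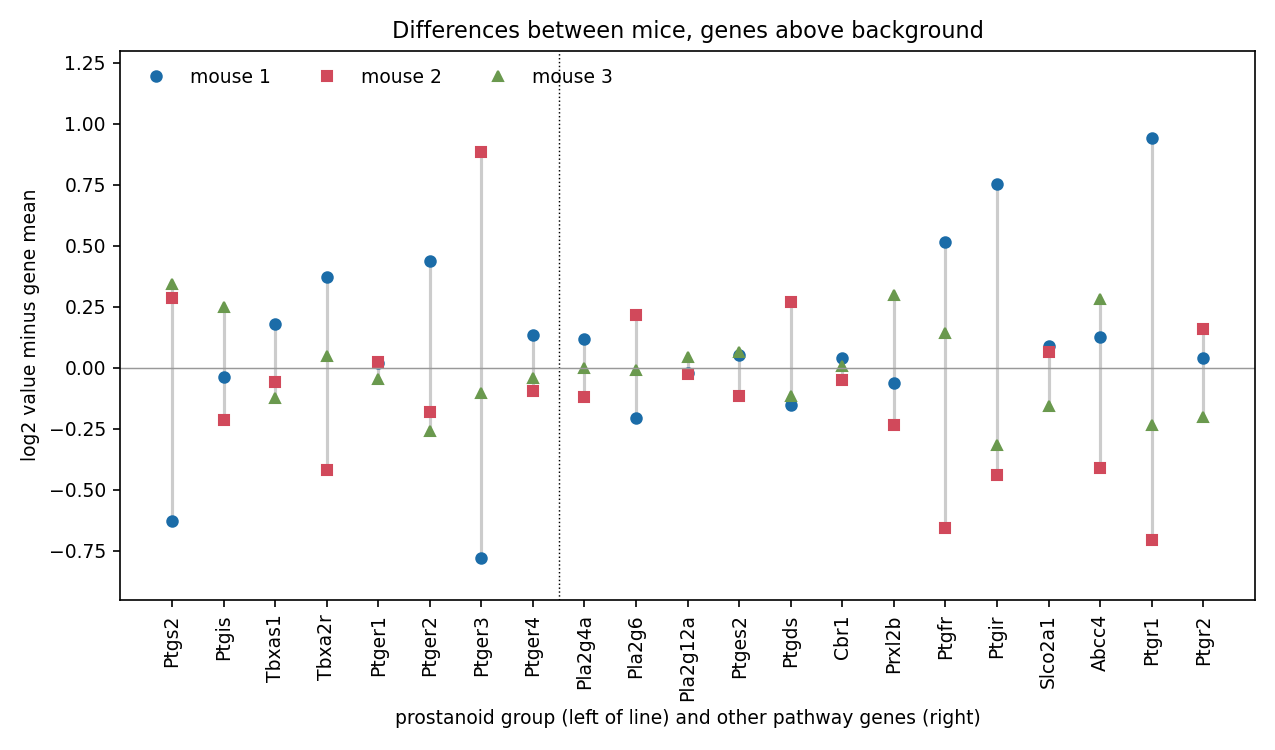
Log2 value minus the gene's mean over 3 mice (y axis) for the 8 prostanoid genes above background (left of the dotted line) and 13 other pathway genes (right), with 1 point per mouse and a grey line over the range. Ptger3 has its highest point in mouse 2, and Ptgir, Ptgfr and Ptgr1 have theirs in mouse 1.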

How the data were processed

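Expression was measured with Affymetrix Mouse 430.2 arrays, 1 for each of 3 mice. The deposited values are log2 expression values per probe set; per the submitters' processing notes the authors used GCRMA (no version given there), which corrects background by probe sequence and brings arrays processed together to a common distribution. Which arrays were processed together is not stated, and the 3 array medians lay between 2.82 and 2.85. Values near background are thus compressed. The scale was read as log2 from the range of values, and no file column was left unused. The platform annotation named the probe sets (34958 with 1 symbol, 932 with several, 9211 with none), and the 9 measured members matched RefSeq by gene identifier. The probe set with the highest mean stood for a gene.

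Spread was tested with limma 3.58.1 in R 4.3.3 (intercept only, trend, robust, one-sided), with Benjamini-Hochberg adjustment over all genes above background. The prior variance came from limma, and each p given as from limma came from an F test of the gene's variance against that prior. The test was checked on simulated data. A p-value thus sets a gene's spread over these arrays against that of all genes at like mean level, and does not measure the spread itself. Each mouse had its own isolate and its own array. Differences between mice, glomerular isolations and arrays can therefore not be told apart. Array number limits the precision. All members, the pathway genes that come first in a list or have a 2-fold range, and the 3 nearest genes of a member with a 2-fold range were named by rule, and other genes with values were chosen after their values were seen. Members and lists were chosen with earlier results of these data known. Alternatives were other thresholds, no filter, the mean over probe sets, quantile normalisation, median centring, another variance prior and leaving out each mouse.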

Additional observations from a re-analysis of the deposited data

How the results depend on the processing

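No paired analysis was possible because there was 1 group. Of the 8 prostanoid genes above background, 6 remained with a threshold at the 99th percentile (Tbxas1 and Ptger1 were lost) and 7 with the mean over probe sets, where Ptger1 was lost. The count of genes called for excess spread was 0 under all alternatives run, by a test that could hardly call any gene. The count with a 2-fold range was 1, and it became 0 with the mean over probe sets and ran from 0 to 1 when a mouse was left out. The median SD of 0.31 ran from 0.0516 to 0.302 when a mouse was left out, each over the remaining arrays only. The mouse with the highest value was the same for 7 of 8 genes after quantile normalisation and after median centring, and the exception was Ptger1. For Ptger3 the adjusted p from limma ran from 0.76 to 0.95 over 9 alternatives. Depth does not apply to arrays. Signal close to background limits Tbxas1 and Ptger1 among the 8 prostanoid genes, and Nos1 and Alox5 among the other genes named. It also limits single low values of wide ranges. Ltc4s in mouse 2 and Tyrobp in mouse 3 lay above the thresholds by 0.44 and 0.50. Irx2 in mouse 1 was at 2.95 against a threshold of 2.58.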

Other observations

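Arachidonic acid also feeds the lipoxygenases, which make leukotrienes and related lipids. Of 9 genes of this branch 5 were above background in all mice, and all 5 were highest in mouse 1, against 35.1% of all genes above background. The lead of mouse 1 over the next mouse was 0.01 for Lta4h (8.61, 8.60 and 8.51 in mice 1, 2 and 3). It was also small for Alox5ap (0.12), Alox5 (0.13) and Ltc4s (0.16), and larger only for Alox12 (0.89). Alox5 (3.37, 3.23 and 2.93) lay close to background, above the thresholds by 0.78, 0.32 and 0.07. Alox5ap, which encodes the protein that hands arachidonic acid to 5-lipoxygenase, was at 6.16, 6.04 and 5.32 in mice 1, 2 and 3. Alox12, a 12-lipoxygenase gene, was at 6.80, 5.91 and 5.90. Ltc4s, the leukotriene C4 synthase gene, was at 4.93, 3.35 and 4.77, a 2.99-fold range, with an adjusted p of 0.94 from limma. The receptor genes Cysltr1, Cysltr2 and Ltb4r1 were below background in all mice. Macrophage markers were highest in mouse 1 for 4 of 5 genes, and their part in these values was not tested.

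All 8 genes of the G protein alpha subunits that couple to prostanoid receptors exceeded background in every mouse. Their median SD was 0.07 and none had a 2-fold range. Gnas, whose product raises cyclic AMP, was at 13.65, 13.70 and 13.78, and Gnai1, whose product lowers it, was at 11.28, 11.63 and 11.40.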
